A study of Mus musculus with 47 samples.

Results

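The intervals described here are the 3′ UTRs of protein-coding RefSeq transcripts (accessions starting with NM) that span at least 5000 bases. They were chosen by length alone, with intervals of identical coordinates counted once, and 442 of 21788 different intervals met the rule. They were compared with the 6798 intervals of 500 to 1500 bases. The counts come from SLAM-seq, in which RNA made in the presence of 4-thiouridine (4sU) carries T>C conversions, of P19 cells, a wild-type mouse embryonal carcinoma line. Undifferentiated cells (day 0, D0) were compared with cells kept for 6 days in NDiff 227 medium with 500 nM retinoic acid (D6). In the catabolic assay cells were labeled for 15 h (a shorter time is given where the methods describe normalization, so that values named here as after 15 h carry this doubt) and sampled after 4sU was removed, and in the anabolic assay they were sampled from the addition of 4sU. Each state, assay and time point (T0, T1, T3 and T9) had 3 libraries, except 2 at D6 catabolic T3, which gave 47 libraries in all. By the study's methods the dose was 20 µM 4sU at D0 and 500 µM at D6, so that dose and state cannot be told apart, and conversion rates are compared between length classes within a library or relative to 0 h within a state. D6 is a culture of 1 line in bulk, in which a change in the number of cells of a type and a change in RNA per cell cannot be told apart.

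The 3′ UTR is the stretch of an mRNA between the stop codon and the poly(A) tail. It holds binding sites for microRNAs and RNA-binding proteins that act on stability, translation and localization, and it ends downstream of a polyadenylation signal, most often AATAAA. Neural tissue is known for long 3′ UTRs, which arise both from genes expressed there and from the use of distal polyadenylation sites. QuantSeq libraries read the mRNA near its poly(A) tail, so that each interval gathers the reads of every polyadenylation site inside it, and sites within 1 interval are not told apart.

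The long intervals ran from 5001 to 15929 bases, with a median of 5957.5. Of these, 227 were under 6000 bases, 62 reached 8000 and 23 reached 10000. They made up 2.03% of the intervals and 11.6% of their bases. They belong to 418 gene symbols, and 43 of them overlapped another long interval, so that members of 1 gene can share reads. T, the base in which label is read, made up 30.6% of their bases against 28.96% in the class of 500 to 1500. On the GENCODE vM21 annotation of the same build (GRCm38), 287 of 442 lay inside a single exon and 57 held annotated coding bases. Fewer than 50% of the bases were exonic in 45 intervals, Lin7a (28.8%) and Fbxl17 (19.7%) among them.

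The last 30 bases are shown for members that lead the results below, because this is where a transcript that uses the whole interval would carry its polyadenylation signal. The sequences are given 5′ to 3′ on the transcribed strand, from GENCODE vM21 transcripts on GRCm38, and capitals mark AATAAA or ATTAAA. The first 5 belong to 3′ UTRs with more reads at D6, the next 4 to 3′ UTRs with fewer, and the last 2 to the 2 longest that could be read.
Sox11 (chr12:27334268-27334297, minus strand): tcaacaAATAAAttcattgacatttctggc
Dcx (chrX:143855842-143855871, minus strand): attttccaaaAATAAAatttgatttcaata
Rab3c (chr13:110054187-110054216, minus strand): ataaatatctaagagactatattcctgaaa
Slc1a2 (chr2:102790755-102790784, plus strand): atcAATAAAtgtagattgcaatttctcttt
Gsk3b (chr16:38246050-38246079, plus strand): gctgcttcAATAAAgacaaatttatattgg
Igf2bp1 (chr11:95957163-95957192, minus strand): cctcaaAATAAAaggaaacttatattgaaa
Lpp (chr16:24992549-24992578, plus strand): aaaatccAATAAActtctcattccacttaa
Cdk6 (chr5:3530979-3531008, plus strand): tacAATAAAaatgtcagtagcaAATAAAaa
Npr3 (chr15:11839896-11839925, minus strand): tgttctcATTAAAcgtatactctacagaaa
Slc8a1 (chr17:81373105-81373134, minus strand): taacactgaaatataaatgtttgtaaatta
Strbp (chr2:37569868-37569897, minus strand): AATAAAAATAAAcgctgtgtcaaataggaa

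AATAAA stood in the last 30 bases of 67.7% of the 297 long intervals whose end could be read, against 54.5% of 5392 intervals of 500 to 1500 bases and 53.5% of 16538 intervals of any length. With ATTAAA, the common variant, the shares were 81.1%, 68.0% and 66.4%. In the lines above Rab3c and Slc8a1 hold neither motif in this window, and Strbp and Cdk6 hold AATAAA 2 times. Over the 287 intervals whose whole sequence could be read, the median interval held 5 AATAAA motifs, against 1 in intervals of 500 to 1500 bases, and the density was 0.808 against 1.38 sites per kb. A signal at the end of an interval adds less per kb the longer the interval is, and its part in this difference was not tested. Per kb TGTANATA, the motif of Pumilio proteins, had nearly the same density as in intervals of 500 to 1500 bases (0.251 and 0.253). ATTTA, the core of AU-rich elements, stood at 2.01 and 1.78 sites per kb and the longer TATTTATT at 0.123 and 0.155. Each site of TATTTATT also holds an ATTTA. Only the transcribed strand was searched, overlapping sites were counted apart, and a motif is not evidence of a bound site.

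Reads per library over all 3′ UTR intervals, with those of accessions other than NM, ranged from 1489528 to 11677046, with a median of 5750402. The neuronal markers summed to 1147 ± 126 CPM (reads per 1000000 reads on NM intervals, SD, n = 3) at D0 and 11672 ± 662 at D6 in the libraries without 4sU, and all 12 were detected in both states. The pluripotency markers summed to 2476 ± 702 and 805 ± 135 CPM. Sox2, which neural progenitors also express, made up 782 of the 805 CPM, whereas Zfp42 was at 0 in both states. Of the astrocyte markers, 4 of 5 were at 0 at D6 and the sum of 102 ± 12.7 CPM came from Slc1a2, itself a member. Endoderm markers stood at 17.1 ± 5.47 and 4.99 ± 3.28 CPM, oligodendrocyte markers at 38.1 ± 31.5 and 45.2 ± 18.8, and mesoderm and muscle markers at 184 ± 37.3 and 13.4 ± 20.1. The part of these markers in the results was not tested. Reads per interval of libraries of 1 group correlated at r = 0.751 to 0.964 at D0 and 0.534 to 0.826 at D6, as a description across intervals. At D6 catabolic T3 library 14 stood apart from library 15 (r = 0.534), and results from this time point rest on these libraries alone. In the anabolic assay at D6, library 45 (T3) stood at 0.648 and 0.663 to the others of its group and library 53 (T9) at 0.630 and 0.603. Library 40 (T1) of that assay stood at 0.688 and 0.647, and library 12 (D6 catabolic T1) at 0.733 and 0.654. The pooled T>C rates of libraries 45 and 53 in the long class were also the lowest of their groups, 2.02% against 2.54% and 2.78%, and 3.19% against 4.27% and 3.82%. That of library 40 was 0.236% against 0.265% and 0.256%. Library 45 had the lowest share of long reads at D6 (5.86%).

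Long 3′ UTRs gathered a larger share of the reads at D6. Shares are of the reads on all NM intervals of a library. Without 4sU the share of the long class was 4.25% to 4.39% in the 3 D0 libraries (mean 4.32 ± 0.068) and 6.71% to 7.19% in the 3 D6 libraries (mean 6.96 ± 0.24). After 15 h of 4sU it was 4.31 ± 0.072 and 7.09 ± 0.29. Over all time points the D0 libraries lay between 4.14% and 4.73% and the D6 libraries between 5.86% and 8.69%, with no overlap. The class of 500 to 1500 bases took 33.4 ± 0.47% and 32.1 ± 0.22% of the reads. The share of the long class rested in part on Sox11, a transcription factor of neuronal differentiation, which supplied 2.72 ± 0.84% of the long reads at D0 and 16.5 ± 2.4% at D6. Without Sox11 the share was 4.21 ± 0.077% at D0 and 5.81 ± 0.051% at D6, still without overlap. The 10 members with most reads held about the same part of the long reads in both states (30.5 ± 1.2% and 32.1 ± 2.5%).

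**Figure D1:**
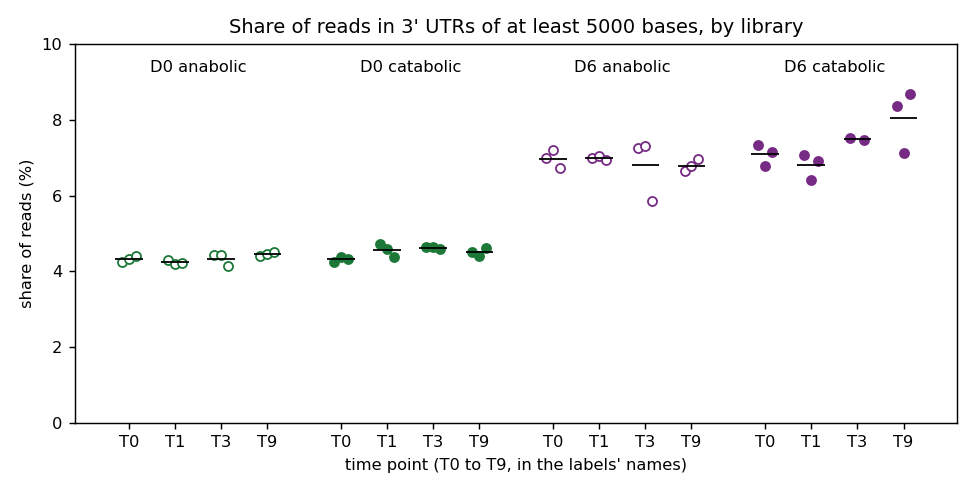
Share of reads in 3′ UTRs of at least 5000 bases (percent of the reads on all NM intervals of a library, y axis) at each time point (x axis). Each point is a library, open for the anabolic and filled for the catabolic assay, and lines are means. All D0 libraries lie between 4.14% and 4.73% and all D6 libraries between 5.86% and 8.69%.

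The comparison of D6 with D0 asked which of these 3′ UTRs gained or lost reads on differentiation. Without 4sU, 383 members had enough reads to be tested, 59 did not, and 5 had no read in any of the 47 libraries. With edgeR's quasi-likelihood test over 11075 intervals and an adjusted p of at most 0.05, 91 members were higher at D6 and 19 lower, which is 23.8% and 4.96% of those tested. Of all intervals 7.04% were higher and 5.16% lower, and of those of 500 to 1500 bases 218 (5.61%) and 202 (5.20%) of 3883. The median log2 fold change was 0.62 in the long class, -0.11 in the class of 500 to 1500 and -0.04 over all intervals. In 148 members all 3 D6 libraries lay above all 3 D0 libraries, 38.6% of those tested against 17.7% of all intervals. In 41 they lay below, 10.7% against 17.5%. The count of higher members fell to 58 without library 37 and to 59 without library 38, both of D6.

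The share called higher grew with length in steps. It was 3.53% under 500 bases, 5.61% from 500 to 1500, 8.85% above 1500 and under 3000, 11.3% from 3000 to under 5000, 22.2% from 5000 to under 8000 and 32.8% at 8000 or more, where 19 of 58 were higher and 4 lower. The share called lower followed no such order, with 6.00% in the shortest and 6.90% in the longest bin. Longer intervals also hold more reads, and the part of read number in these shares was not tested. The median log2 fold change, which needs no call, went from -0.32 in the shortest bin through 0.13 and 0.42 to 0.62 and 0.71. Across all 11075 intervals Spearman's rho of length and log2 fold change was 0.178, and among the 383 long ones alone 0.093, as a description of genes that share libraries.

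**Figure D2:**
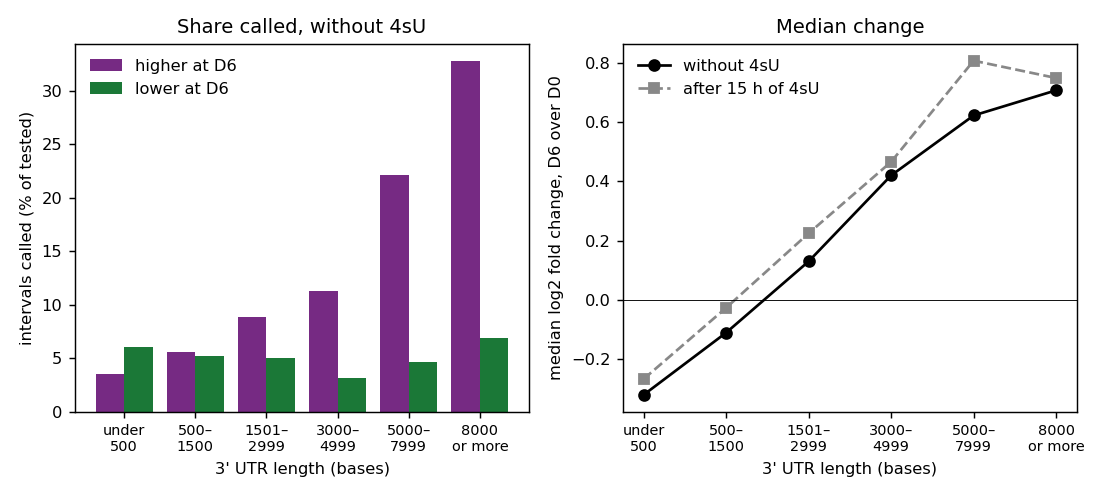
Left, percent of tested intervals called higher (purple) or lower (green) at D6 by edgeR in libraries without 4sU, by 3′ UTR length in bases. Right, median log2 fold change of D6 over D0 per length bin without 4sU (circles) and after 15 h of 4sU (squares). The share higher goes from 3.53% to 32.8% and the median from -0.32 to 0.71 without 4sU.

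The libraries labeled for 15 h, which the first test did not use, gave 90 members higher and 21 lower of 386 tested, against 7.2% and 6.74% of all 10785 intervals. The counts were 53 and 13 without library 7, and the lower count was 13 without library 8. The median was 0.80 in the long class and -0.03 in the class of 500 to 1500. Of the members tested in both sets, 61 were higher in both, which is 67.0% of the calls without 4sU and 67.8% of those after 15 h, and 14 were lower in both (73.7% and 66.7%). Over all intervals the shares were 62.6% and 62.8% for higher and 64.6% and 50.8% for lower calls, so that the higher calls of the long class were shared about as often as those of all intervals. All 90 members that were higher without 4sU and tested after 15 h had a log2 fold change above 0 there, and all 19 lower ones had one below 0. Between 15 h of 4sU and none, edgeR called 0 of 353 long intervals at D0 (0.0% of all 10676 intervals) and 0 of 381 at D6 (0.00931% of 10743). Also 0 were called when library totals replaced TMM scaling. At an unadjusted p under 0.05 there were 5 and 24 long intervals. No share over all intervals at this limit stands beside these counts, so that they are not read as a result.

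The counts were also taken on the stricter annotation. Among the 253 members inside 1 GENCODE exon and without coding bases, 53 of 222 tested were higher and 10 lower (23.9% and 4.50%, median 0.64). Intervals of 500 to 1500 bases held to the same terms gave 160 higher and 153 lower of 2777 (5.76% and 5.51%, median -0.11). Among the other 189, 38 of 161 were higher and 9 lower (23.6% and 5.59%, median 0.60).

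Sox11 had the most reads of any member. Its 3′ UTR of 6953 bases (chr12:27334268-27341220) held 974, 1591 and 957 CPM at D0 and 11269, 13740 and 9625 CPM at D6. The groups lay far apart, and the log2 fold change was 3.31 (SE 0.31, adjusted p = 6.66e-05). Dcx, doublecortin, a microtubule protein of migrating neurons, carries 7709 bases (chrX:143855842-143863550) and held 5.33, 16.3 and 3.50 CPM at D0 against 1893, 1847 and 2103 at D6. This is a log2 fold change of 7.85 (SE 0.63, adjusted p = 2.59e-05). The D0 libraries of Dcx spread over a few-fold range, and all lay far below the D6 libraries.

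Further members were close to 0 at D0. Lin7a, a scaffold protein of synapses, held 0.288, 0.946 and 0.305 CPM at D0 and 204, 186 and 213 at D6 (log2 fold change 8.64, SE 0.60, adjusted p = 9.50e-06), on an interval of which only 28.8% is exonic in GENCODE. Rab3c, a GTPase of synaptic vesicles, held 0.720, 0 and 0.152 CPM at D0 and 228, 256 and 221 at D6 (log2 fold change 9.52, SE 0.70). Slc1a2, a glutamate transporter and one of the astrocyte markers above, held 0.432, 0.189 and 0 CPM at D0 and 97.0, 92.5 and 116 at D6 (log2 fold change 8.82, SE 0.91). No D0 library reached 1 CPM for these 3 genes. Trim67, a ubiquitin ligase expressed in brain, had 3 reads in all at D0 and 1435 at D6, a pooled ratio of 617 with a 95% exact interval of 211 to 2997 that covers counting error only. Ntrk2, the receptor of brain-derived neurotrophic factor, had no read in the D0 libraries without 4sU and 1136 at D6. This is at least 489-fold higher against a floor of 3 reads over the group. Both ratios hold for the libraries without 4sU only. After 15 h of 4sU the log2 fold changes were smaller, 5.52 (SE 1.25) for Trim67 and 4.64 (SE 1.67) for Ntrk2, against 9.03 and 11.8 without 4sU. In all, 17 tested members had 3 reads or fewer in 1 state, 10 of them called higher and 4 lower. Their fitted fold changes depend on the prior count, and with them set to their ratio or bound the median of the long class stayed at 0.62.

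Fewer members lost reads. Cxcl12, a chemokine, held 139, 83.1 and 139 CPM at D0 and 0.455, 0.577 and 0.149 at D6 (log2 fold change -8.24, SE 0.73, adjusted p = 4.99e-05). Prtg, protogenin, a receptor of early neural tissue, held 606, 423 and 440 CPM against 5.01, 4.32 and 18.8 (log2 fold change -5.63, SE 0.58). Both were reduced to below 20 CPM in every D6 library. Igf2bp1, an RNA-binding protein of embryonic cells, held 2527, 2375 and 2570 CPM at D0 and 582, 499.4 and 608 at D6 (log2 fold change -2.11, SE 0.21, adjusted p = 1.06e-04). Cdk6, a kinase of the G1 phase, held 266, 251 and 273 CPM against 13.2, 48.7 and 32.4 (log2 fold change -3.02, SE 0.47). Npr3, the natriuretic peptide clearance receptor, held 156, 282 and 188 CPM against 8.19, 30.8 and 11.3 (log2 fold change -3.63, SE 0.58). Lpp, a protein of focal adhesions, was lower without 4sU (log2 fold change -2.29, SE 0.35, adjusted p = 0.00172) but missed the threshold after 15 h (-0.99, SE 0.32, adjusted p = 0.0639). It passed after 15 h with DESeq2 (-1.01, adjusted p = 0.0351) and with no filter on low counts (-1.01, adjusted p = 0.0442).

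The members with most reads after Sox11 were in part housekeeping genes. Serbp1, an RNA-binding protein associated with ribosomes, held 2278, 3331 and 2413 CPM at D0 and 1086, 1243 and 1106 at D6 (log2 fold change -1.21, SE 0.25, adjusted p = 0.0105), a call that was lost without library 37 or 39. Ncl, nucleolin, a protein of ribosome biogenesis, held 2173, 1609 and 2622 CPM against 861, 706 and 813 (log2 fold change -1.38, SE 0.22, adjusted p = 0.00229). In both genes the groups did not overlap. Mapre1, a protein of microtubule ends, did not pass the test, with 1023, 1104 and 883 CPM against 1007, 800 and 842 (log2 fold change -0.16, SE 0.23, adjusted p = 0.755).

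**Figure D3:**
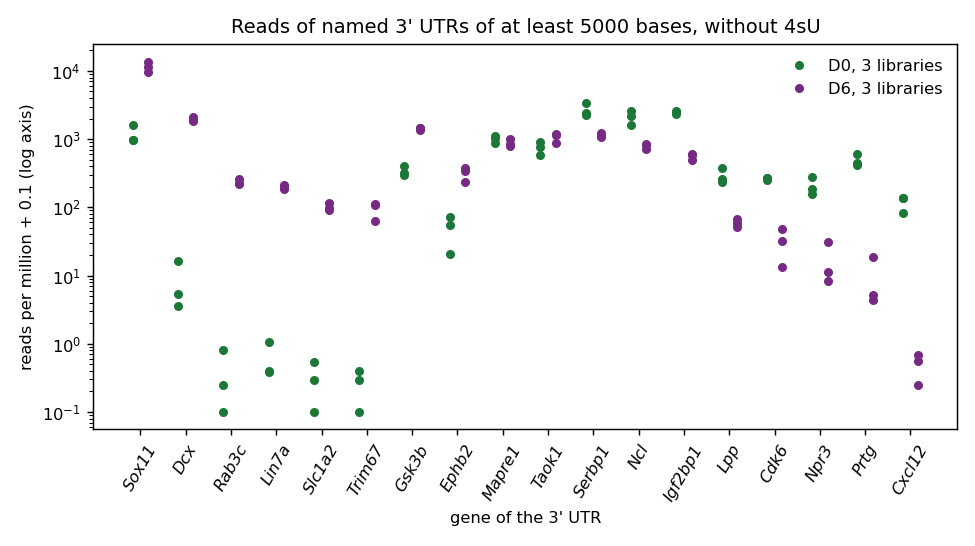
CPM plus 0.1 (log axis) of 18 named 3′ UTRs of at least 5000 bases in the 3 D0 (green) and 3 D6 (purple) libraries without 4sU, each point a library. From Sox11 to Ephb2 all D6 points lie above all D0 points and from Serbp1 to Cxcl12 below, while those of Mapre1 and Taok1 overlap.

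Not all of the longest members changed. The longest interval, of Aak1, a kinase of clathrin-mediated endocytosis (15929 bases), held 96.3, 93.7 and 187 CPM at D0 and 92.4, 166 and 141 at D6 (log2 fold change 0.14, SE 0.39, adjusted p = 0.885). Slc8a1, a sodium-calcium exchanger (15586 bases), held 11.7, 0.757 and 6.24 CPM against 155, 29.98 and 112 (log2 fold change 4.06, SE 0.93, adjusted p = 0.0165), a call lost without library 37 or 39. Fbxl17, a subunit of a ubiquitin ligase (14322 bases), did not pass (log2 fold change 0.74, SE 0.69, adjusted p = 0.606), and Strbp, a double-stranded RNA-binding protein (14162 bases), was higher (log2 fold change 1.65, SE 0.40, adjusted p = 0.0224) but not without library 37 or 38. Of the intervals with reads in every library, those just inside the limit, at 5005 bases, were Prtg and Elovl6, a fatty acid elongase (log2 fold change -0.84, SE 0.39). Just outside were Ralgps2 (4998 bases, log2 fold change 1.34, SE 0.81) and Bcl11b (4997 bases, 1.74, SE 0.76). The 91 higher members had a median length of 6388 bases, the 19 lower ones 5929 and the 273 tested and not called 5943.

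The gene lists held 81 gene entries with a long interval. Of the genes of axon guidance, adhesion and synapse, 19 had a long 3′ UTR and 14 were tested, of which 5 were higher and 0 lower (median log2 fold change 1.92). Over all 3′ UTRs of that list 31 of 66 genes were higher and 1 lower (median 2.16). Besides Dcx and Ntrk2, these were Ephb2, an ephrin receptor (48.8 ± 26.1 to 316 ± 71.1 CPM, log2 fold change 2.71, SE 0.46, adjusted p = 0.00334), Cntn2, an axonal adhesion protein (5.45 ± 4.99 to 123 ± 36.1 CPM, 4.58, SE 0.87, adjusted p = 0.00613), and Nfasc, neurofascin (104 ± 25.3 to 278 ± 65.1 CPM, 1.44, SE 0.35, adjusted p = 0.0207). The guidance ligand Sema5a did not pass (-0.60, SE 0.47, adjusted p = 0.517). Cacna1e and Gabrb2, a calcium channel and a GABA receptor subunit, had no read in either state without 4sU.

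Of the transcription factors of neural patterning, 5 of 10 tested were higher and 0 lower (median 1.46), against 44 higher and 0 lower of 69 genes over the whole list (median 3.25). Besides Sox11 they included Onecut2 (34.6 ± 21.8 to 574 ± 46.2 CPM, log2 fold change 4.06, SE 0.56, adjusted p = 9.29e-04), Nfia (4.35, SE 0.78) and Nfib (2.79, SE 0.42). Sox6 (-1.13, SE 0.51, adjusted p = 0.195) and Pou2f1 (-0.40, SE 0.33, adjusted p = 0.542) did not pass.

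Of 18 RNA-binding and microRNA pathway genes tested, 6 were higher and 1, Igf2bp1, lower (median 0.39). Over the whole list 14 of 74 were higher and 6 lower (median 0.26). The higher ones were the splicing regulators Celf2 (171 ± 11.9 to 722 ± 80.5 CPM, log2 fold change 2.11, SE 0.25, adjusted p = 3.85e-04), Rbfox2 (1.42, SE 0.25), Nova1 (1.97, SE 0.50), Nova2 (2.69, SE 0.52) and Srrm4, and Tnrc6b, a partner of Argonaute (168 ± 29.5 to 417 ± 66.2 CPM, 1.34, SE 0.28, adjusted p = 0.0101). Srrm4, a splicing factor of neural microexons, had 1 read at D0 and 622 at D6, a pooled ratio of 803 with a 95% exact interval of 144 to 31757. Ago2 itself did not pass (-0.65, SE 0.40, adjusted p = 0.373), nor did Celf1 (-0.16, SE 0.25, adjusted p = 0.78) or Hnrnpd (0.08, SE 0.24, adjusted p = 0.897). After 15 h Hnrnpd was called lower (-0.99, SE 0.23, adjusted p = 0.0151), and the list had 7 higher and 2 lower.

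Of the signaling genes 7 of 16 tested were higher and 0 lower (median 0.85), and over the whole list 11 of 66 were higher and 4 lower. Gsk3b, a kinase of Wnt and insulin signaling, held 294, 401 and 321 CPM at D0 and 1448, 1479 and 1343 at D6 (log2 fold change 2.09, SE 0.25, adjusted p = 4.55e-04). The others were Fzd3 (2.99, SE 0.35), Erbb4 (3.28, SE 0.57), Pik3ca (2.16, SE 0.37), Bmpr2 (2.06, SE 0.37), Igf1r (1.28, SE 0.27) and Acvr2b (1.05, SE 0.25), of which all but Pik3ca, a catalytic subunit of PI3 kinase, are receptors. Only 17.7% of the Acvr2b interval is exonic in GENCODE. Taok1 did not pass with edgeR (0.57, SE 0.23, adjusted p = 0.149) but did with DESeq2 (0.59, adjusted p = 0.0412). Of the chromatin regulators 3 of 8 were higher and 0 lower (median 1.47). They included the histone demethylase Kdm7a (16.2 ± 6.78 to 107 ± 10.1 CPM, log2 fold change 2.73, SE 0.54, adjusted p = 0.00771) and the histone methyltransferase Nsd2 (1.61, SE 0.38), while Cbx5, heterochromatin protein HP1 alpha, did not pass (0.12, SE 0.26, adjusted p = 0.859). Over that whole list 4 of 57 were higher and 1 lower.

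Of the ubiquitin ligases and deubiquitinases 3 of 6 were higher (Trim67, Rnf152 and Rnf165) and 0 lower, and over that whole list 4 of 44 genes were higher and 1 lower. Rnf165 was not called without library 37. Both pluripotency genes with a long 3′ UTR, the DNA methyltransferase Dnmt3a (0.08, SE 0.24, adjusted p = 0.893) and Tet1 (0.74, SE 0.38, adjusted p = 0.276), did not pass, whereas over the whole list 16 of 34 genes were lower and 1 higher. Of the list members called higher without 4sU, 7 missed the threshold of edgeR after 15 h. These were Nfasc (log2 fold change 0.77, adjusted p = 0.154), Ntrk2 (4.64, 0.0941), Nova1 (1.71, 0.0941), Kdm7a (1.52, 0.0932), Bmpr2 (1.85, 0.127), Erbb4 (3.79, 0.238) and Rnf152 (1.22, 0.474). No gene of the cleavage and polyadenylation list had a long 3′ UTR.

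Whether the end of long 3′ UTRs was used more at D6 could be asked for few members. Of 70 intervals that contain a shorter one with the same start, 5 were long, and in 4 of these (Celf2, Dcaf17, Pfkfb2 and Tbc1d24) the short part had no read, 3 of them with a short part of 4 to 44 bases. Creb5, a transcription factor, has a proximal part of 1745 of 6277 bases. Its distal share of reads without 4sU was 59.5%, 49.7% and 0% at D0 and 74.4%, 80.8% and 0% at D6, from 42, 183 and 86 reads and from 125, 52 and 5. The shares overlapped, and the log2 difference of 1.74 (SE 4.24, adjusted p = 0.896 by edgeR over 27 pairs) was not detectable at this depth. In the libraries after 15 h the distal share of Creb5 was 0% and 16% at D0, where library 27 had no read, and 100%, 84.6% and 100% at D6. These shares do not overlap, but they rest on 43 and 25 reads at D0 and on 33, 13 and 40 at D6. The log2 difference was 9.81 (SE 7.51, adjusted p = 0.778), where 3.57% of 28 pairs were called and none of them was long.

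The labeling comparison asked whether long 3′ UTRs carry and lose label like shorter ones. After 15 h of 4sU the pooled T>C rate of the long class (conversions over covered T of all its members) was 1.45 ± 0.053% at D0 and 4.57 ± 0.34% at D6, against 1.45 ± 0.070% and 4.70 ± 0.34% in the class of 500 to 1500 bases. Without 4sU it was 0.172 ± 0.033% and 0.143 ± 0.031%. The ratio of long to shorter was 0.997 ± 0.020 at D0 and 0.970 ± 0.0047 at D6 after 15 h. In the catabolic assay it then went to 0.986 ± 0.026, 0.867 ± 0.013 and 0.751 ± 0.018 at T1, T3 and T9 of D0, and to 0.951 ± 0.015, 0.780 ± 0.0067 (n = 2) and 0.653 ± 0.033 at D6. In both states every library at T3 and T9 lay below every library at T0. Without 4sU, where conversions are background, the ratio was 0.999, 1.09 and 1.15 at D0 and 0.828, 0.926 and 0.819 at D6. At T1, T3 and T9 of the anabolic assay the ratio was above 1 in every library, with means of 1.13 ± 0.018, 1.23 ± 0.019 and 1.08 ± 0.010 at D0 and 1.12 ± 0.088, 1.25 ± 0.030 and 1.02 ± 0.026 at D6. The D6 ratio at T1 was 1.04 in library 40 and 1.11 and 1.21 in the others. At T3 it was 1.29 in library 45 and 1.24 and 1.23 in the others, and at T9 it was 1.05 in library 53 and 1.01 in each of the others. At T1 of D0 the rate of the long class (0.168 ± 0.0036%) was no higher than without 4sU, so that this ratio is one of background. Without Sox11 the ratio at T9 of the catabolic assay was 0.756 at D0 and 0.694 at D6.

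**Figure D4:**
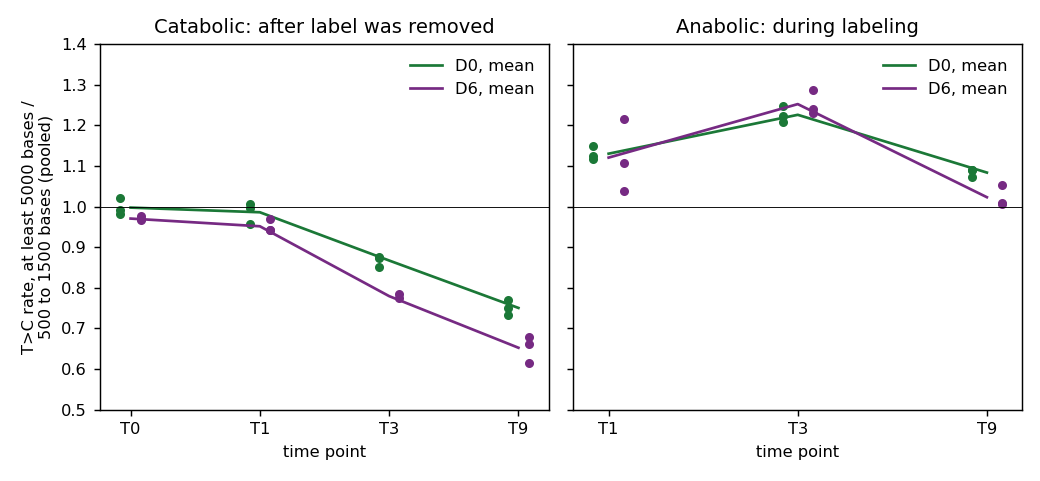
Pooled T>C conversion rate of 3′ UTRs of at least 5000 bases divided by that of 500 to 1500 bases in the same library, at the time points of the catabolic assay (left) and the anabolic assay (right). Points are libraries and lines are means of D0 (green) and D6 (purple). In the catabolic assay the means go from 0.997 to 0.751 at D0 and from 0.970 to 0.653 at D6.

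In absolute terms 20.1 ± 0.53% of the pooled rate of the long class was left after 9 h at D0, against 26.7 ± 1.4% in the class of 500 to 1500, a difference of -6.61 ± 0.82 percentage points (3 libraries). At D6 it was 12.8 ± 1.3% against 19.0 ± 1.3%, a difference of -6.22 ± 0.62. With the rate of libraries without 4sU subtracted the values were 9.27 ± 0.60% and 17.6 ± 1.5% at D0 and 9.97 ± 1.3% and 16.05 ± 1.3% at D6. A pooled rate weights members by their reads, and the median member gave another picture. Over members that averaged 1000 covered T or more per library, the median of label left was 9.51 ± 4.9% in the long class and 10.3 ± 6.4% in the shorter one at D0. At D6 it was 7.497 ± 4.3% and 5.32 ± 3.9%, a difference of 2.17 ± 0.52 points. The D6 means rested much on library 16. Libraries 16, 17 and 18 gave 12.1, 3.47 and 6.93% in the long class and 9.58, 1.91 and 4.49% in the shorter one. With the rates of the libraries averaged per interval before the median was taken, the long class had 14.2% left against 16.2% at D0 and 10.5% against 11.1% at D6. The sign of the difference at D6 thus depended on how the median was taken. With at least 10000 covered T the difference was -6.60 ± 0.92 points at D0 and -1.12 ± 1.1 at D6. In all 3 libraries of each state the difference was below 0 for pooled counts and with at least 10000 covered T, and at D6 it was above 0 in all 3 with at least 1000.

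Loss of label was called by edgeR in 157 of 378 members at D0 and 204 at D6, and a gain in 0 and 0, against 30.1% and 44.8% of all 9820 intervals with loss, 0.183% and 0.153% with gain, and 30.2% and 45% with either. Long intervals also had more covered T, and the part of coverage in these shares was not tested. The median log2 change in rate from 0 to 9 h was -2.64 at D0 and -3.19 at D6 (-2.40 and -3.05 for 500 to 1500 bases). The count at D0 was 102 without library 35. Among the 158 members with an average of at least 10000 covered T, label left had quartiles of 8.29% and 22.6% at D0. Over 157 of them it had quartiles of 7.74% and 16.7% at D6, and 92 (58.6%) had less left at D6. This count used rates with background left in, and no share over all intervals stands beside it. The average of covered T runs over both states, so that a gene may have few reads in one of them. With at least 10000 covered T at both 0 and 9 h in each state, a limit chosen after seeing the data, 67 members were left. In these label left ran from 2.54% in Zfp26 to 73.1% in Pdpk1 at D0 and from 1.27% in Tbl1xr1 to 54.3% in Pdpk1 at D6. Of them 38 (56.7%) had less left at D6, again with background left in and with no share over all intervals. With background subtracted, the pooled label left of the long class was 9.27 ± 0.60% at D0 and 9.97 ± 1.3% at D6. The direction between states thus depended on the background, and these counts are not read as a faster loss at D6. Spearman's rho of length and label left was -0.154 over 9177 intervals at D0 and -0.118 over 9443 at D6, and among the long intervals alone -0.031 over 352 and 0.016 over 366, as a description of intervals that share libraries.

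Half-lives came from an exponential decay over time points set at 0, 3, 6 and 9 h, where the labels read 0, 1, 3 and 9. Of the 378 members with at least 1000 covered T, 82 gave a half-life at D0 (median 274 min) and 102 at D6 (median 246 min). The coverage is again an average over both states, and 4 of the 82 and 2 of the 102 had under 1000 covered T at 0 or 9 h in the state itself, among them Fsd1l with 13.7 and 124 at D0. The other 78 had a median of 288 min at D0, from 147 in Gabpb2 to 1345 in Pdpk1, and the other 100 a median of 249 min at D6, from 81.3 in Atxn1 to 492 in Dcx. The shorter class had medians of 274 and 215 min. For the 33 members with a half-life in both states the medians were 311 and 294 min, and 22 (66.7%) were shorter at D6. In the class of 500 to 1500 bases 134 intervals had both, with medians of 289 and 241 min and 93 (69.4%) shorter at D6, and over all intervals 293 of 415 (70.6%) were shorter. With the hours of the labels the medians of the long class were 190 min at D0 and 144 at D6, and with only 0 and 9 h 185 and 164. All these fits left background in. With background subtracted the D0 median of the long class was 251 min, from 74 members. The counts of members with a shorter half-life at D6 are thus not read as a faster decay. Among those with most covered T, the half-life was 272 and 315 min in Sox11, 571 and 294 in Igf2bp1, 310 and 319 in Taok1 and 495 and 334 in Cbx5 at D0 and D6.

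The difference between states in the label lost by 9 h was called for 3 of 378 members, 1 with less loss at D6 and 2 with more, against 0.0204% and 0.316% of all 9820 intervals. For Igf2bp1 the T>C rate went from 2.12, 1.37 and 1.61% at 0 h to 0.564, 0.593 and 0.556% at 9 h at D0, and from 6.29, 6.41 and 3.65% to 0.665, 0.307 and 0.460% at D6. Label left was 33.6 ± 1.2% at D0 and 8.76 ± 3.3% at D6, and the log2 difference was -1.94 (SE 0.39, adjusted p = 0.0222). Without 4sU this interval already showed a rate of 0.257, 0.258 and 0.614% at D0 and 0.294, 0.111 and 0.388% at D6. With the mean of these subtracted 14.7% was left at D0 and 4.11% at D6. In both states the rates at 9 h overlapped those without 4sU, and the test left this background in. Igf2bp1 thus had fewer reads at D6, while its larger loss of label holds for rates with background and its size is uncertain.

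Mapre1, whose reads did not pass the test, went from 1.396, 1.46 and 1.38% to 0.388, 0.364 and 0.419% at D0, and from 4.36, 4.82 and 4.37% to 0.497, 0.434 and 0.455% at D6. Label left was 27.6 ± 2.0% and 10.2 ± 0.70%, with the libraries of each group close together (log2 difference -1.43, SE 0.33, adjusted p = 0.0472). The rate of Mapre1 without 4sU was 0.0182% at D0 and 0.0490% at D6.

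Qk, an RNA-binding protein of splicing and glial development, went the other way on few reads. Its rate went from 1.82, 2.44 and 0.654% to 0.00951, 0 and 0.0190% at D0, and was 6.76, 6.58 and 6.70% at 0 h and 5.93, 1.54 and 0.638% at 9 h of D6 (log2 difference 6.01, SE 1.39, adjusted p = 0.0478). The 9 h libraries of D6 spread widely, the loss at D6 alone was not called (adjusted p = 0.199), the lowest library had 123 reads, and another interval of the gene overlaps this one. Over 29 alternatives and left-out libraries the adjusted p ranged from 6.98e-04 to 0.225 for Igf2bp1, from 0.00392 to 0.583 for Mapre1 and from 3.34e-04 to 0.855 for Qk, and 21, 8 and 7 of them passed.

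**Figure D5:**
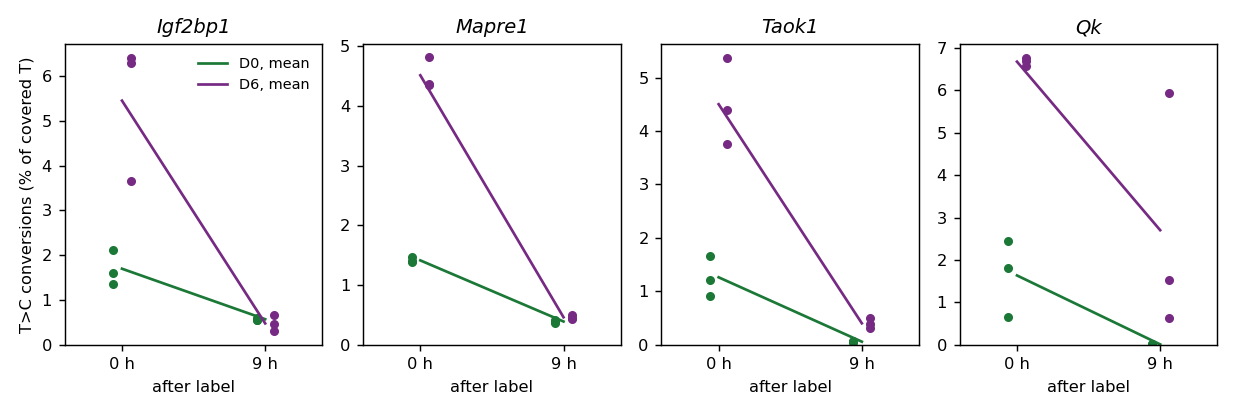
T>C conversions (percent of covered T, y axis) after 15 h of 4sU (0 h) and 9 h after its removal in 4 named members, each point a library and lines the means of D0 (green) and D6 (purple). In Mapre1 the rates go from about the same in all D6 libraries at 0 h (4.36 to 4.82%) to 0.434 to 0.497%, while the 9 h rates of Qk at D6 spread from 0.638 to 5.93%.

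The other members named for this comparison were not called. Taok1, a kinase of stress signaling, had 4.60 ± 0.69% left at D0 and 8.94 ± 2.2% at D6 (log2 difference 0.96, SE 0.35, adjusted p = 0.216), Sox11 15.4 ± 4.0% and 9.64 ± 1.1% (-0.68, SE 0.20, adjusted p = 0.143) and Cbx5 22.2 ± 5.9% and 14.5 ± 2.9% (-0.61, SE 0.33, adjusted p = 0.435). Vcpip1, a deubiquitinase, had 14.6 ± 6.5% left at D0 and 0.301 ± 0.038% at D6, from as few as 109 and 168 reads in a library (log2 difference -5.54, SE 1.42, adjusted p = 0.0982). Over its 29 alternatives and left-out libraries the adjusted p of Vcpip1 ranged from 4.37e-05 to 0.660 and 6 passed, among them DESeq2, at least 5000 covered T, no coverage minimum and a slope over the hours of the labels. Label taken up by 9 h relative to 15 h did not differ between the states in any member by edgeR (0 of 378, 0.0% of all intervals). At an unadjusted p under 0.05 there were 30 members, and DESeq2 called 4 lower. No matching share over all intervals stands beside these counts, so that they are not read as a result about long 3′ UTRs.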

How the data were processed

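3′ UTR counts of 47 QuantSeq SLAM-seq libraries were used. The authors made them with SLAMdunk 0.3.3 on mm10, and the deposited tables give per interval the reads, the covered T positions and the T>C conversions as counts. Their deposited CPM column and conversion-rate fraction were not used. Rates were recomputed from counts, and CPM from counts relative to the reads on all NM intervals of a library. Reads were tested with edgeR 4.0.16 (R 4.3.3; TMM, filterByExpr, quasi-likelihood test) over all NM intervals, with Benjamini-Hochberg adjustment at 0.05. Conversions were tested in the same way with the log of covered T as offset, for intervals that averaged 1000 covered T or more. Half-lives came from an exponential through 1 at 0 h, kept at R squared over 0.6 and up to 5000 min (Python 3.11.15, numpy 2.4.6, scipy 1.17.1, pandas 2.3.3). Label left is the rate at 9 h over the mean rate at 0 h. For these the hours of the study's methods (0, 3, 6 and 9) were used, where the labels give 0, 1, 3 and 9. The alternatives included DESeq2 1.42.0, other filters, scalings, length limits and leaving out each library. The tests were tried on simulated counts. Ends and motifs were read from GENCODE vM21 transcripts (GRCm38, the build of mm10).

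The length rule that sets the members and the gene lists were chosen with earlier results of these data known. Under that rule members were taken by length alone. Genes were named by rule: the 5 longest members, the 5 with most reads, the 6 with the smallest p in each direction for reads and the 3 for the difference in label lost, the 4 with most covered T among those with both half-lives, members with a nested shorter interval, the 2 with most reads of each list, and, of intervals with reads in every library, the 2 nearest to each side of 5000 bases. Some genes that the rule names are not reported here. Other list members, genes with 3 reads or fewer and those at the ends of a range were named after their values were seen. The series text calls the replicates biological, and no label pairs libraries. The total reads per library set the precision. Counting intervals cover counting error only.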

Additional observations from a re-analysis of the deposited data

Results flagged for a closer look

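In 3 members a test of the difference between states itself (edgeR, interaction of state and time in label lost by 9 h) passed at an adjusted p of at most 0.05. With background left in, the log2 difference of D6 against D0 was -1.94 in Igf2bp1 and -1.43 in Mapre1 (more loss at D6). It was 6.01 in Qk (less loss). In Igf2bp1 the D6 libraries at 0 h ranged from 3.65% to 6.41% and the rate without 4sU was 0.376% at D0 and 0.264% at D6. In Mapre1 the 3 libraries of each group lay close together. In Qk 1 D6 library at 9 h kept a rate of 5.93% and the others 1.54% and 0.638%. The 4sU dose differed with the state, and its part in these differences cannot be told apart from the state.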

How the results depend on the processing

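No paired analysis was possible because the library numbers are not shared between groups. With each library left out in turn, members higher at D6 ranged from 58 to 103 and lower from 14 to 19 without 4sU, and from 53 to 90 and 13 to 18 after 15 h, with 53 and 13 without library 7. Loss of label ranged from 102 to 170 at D0 and 162 to 220 at D6 with 0 to 1 gains, and the difference between states from 0 to 1 higher and 0 to 6 lower. Distal pairs higher after 15 h ranged from 0 to 2, and median half-lives from 267 to 286 min at D0 and 212 to 268 at D6.

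The difference between states gave 0 higher with no coverage minimum, 0 higher and 1 lower with only 0 and 9 h, 12 lower with DESeq2, 0 and 0 with a slope over the hours of the methods, 4 lower with those of the labels, and 0 higher among members in 1 exon without coding bases. Label uptake gave 4 lower with DESeq2. The read share was 7.29% at D0 and 10.98% at D6 from 4000 bases, 0.709% and 1.09% from 8000 bases, and 4.21% and 5.81% without Sox11. Over members at D0, the long class minus 500 to 1500 bases in conversion rate was -0.0728, -0.113 and -0.0967 points 9 h after label (5000 and 10000 covered T, pooled), 0.156 and 0.184 at the third anabolic time point (5000 and 10000), and 0.0782, 0.0544 and 0.105 after 9 h of label (10000, background subtracted, pooled). At D6 it was -0.113, -0.176 and -0.138 after 15 h and -0.0226, -0.0656 and -0.310 points 9 h after label (5000, 10000, pooled), and 0.575, 0.551, 0.427 and 0.417 at the third anabolic time point (5000, 10000, background subtracted, 1 interval per cluster). The difference in label left was -3.72, -6.60, -6.61 and -8.33 points at D0 (5000, 10000, pooled, pooled with background subtracted). At D6 it was 0.134, -1.12, -6.22 and -6.08 in the same order, 1.62 with background subtracted, 0.750 from 4000 bases and 4.69 from 8000. The median half-life at D0 was 370.1 min with no minimum of R squared, 190 with the hours of the labels, 185 with only 0 and 9 h and 251 with background subtracted, and at D6 144 with the hours of the labels and 164 with only 0 and 9 h. The cause of these shifts was not tested. The pooled values, the coverage minimum within a state, the set without Sox11 and the exon set were chosen after seeing the data.

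Uncalled genes turned sign in the reads: Aak1 was -0.073 without library 38 and -0.03 without 55 (range -0.073 to 0.49), Qk 0.27 and 0.45 (-0.76 to 0.45), Cbx5 -0.04 and -0.062 (-0.062 to 0.24), and Creb5 0.25 without 39 and 0.72 without 56 (-1.19 to 0.72), and after 15 h -0.09 without 9 and -0.15 without 27 (-0.15 to 1.401). Gas7 turned to -0.38 in the difference of label lost without library 26. DESeq2 was not run for 15 h of 4sU against none. Few reads limit members below 1000 covered T.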
